A study of Caenorhabditis elegans with 24 samples.

Results

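The mitochondrial respiratory chain and ATP synthase of C. elegans were followed through 32 of 17118 named genes, read by 45 of the 22548 probe sets tested. A probe set was a member when its single annotated gene symbol began with nuo-, cox-, atp- or cyc-, or was gas-1, isp-1, mev-1, sdha-1, sdhb-1, clk-1 or cco-1. The annotation lists cco-1 under the symbol cox-5B, and no measured value entered the choice. The members comprised 9 probe sets of complex I, 5 of complex II, 1 of ubiquinone synthesis (clk-1), 6 of complex III and cytochrome c, 10 of complex IV subunits, 6 of complex IV assembly factors and 8 of ATP synthase. For 11 genes there was more than 1 probe set, and 25 members had identifiers that mark probes shared between transcripts. A probe set matched to cox-18 together with another gene was left out.

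The respiratory chain sits in the inner mitochondrial membrane. Complexes I and II pass electrons from NADH and succinate to ubiquinone, complex III passes them on to cytochrome c, and complex IV, cytochrome c oxidase, passes them to oxygen. Complexes I, III and IV pump protons across the membrane, and ATP synthase uses the return flow to make ATP, on which neurons draw heavily for ion pumping and synaptic transmission. The genes are used by nearly all cells, and all members are encoded in the nucleus. Worms with altered gas-1, mev-1, isp-1 or clk-1 are known for changed sensitivity to oxygen or anaesthetics, or for changed lifespan.

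Transcripts were hybridized to the Affymetrix C. elegans GeneChip, and 3 neuronal samples were each compared with a reference to find neuron-enriched transcripts. The embryonic pan-neural sample (3 arrays) held GFP-positive cells of the strain NW1229, which carries F25B3.3::GFP in all neurons, sorted by fluorescence from cultured cells of dissociated embryos. The embryonic reference (4 arrays) held all living cells sorted from embryonic cell cultures, and the paper describes it as a profile obtained earlier. The larval pan-neural sample (3 arrays) was RNA bound to FLAG::PAB-1, a tagged poly(A)-binding protein driven by the F25B3.3 promoter in the integrated line SD1241, and the larval A-class sample (4 arrays) was RNA bound to 3XFLAG::PAB-1 driven by the unc-4 promoter from the extrachromosomal array of the line NC694. Both were pulled down from formaldehyde-fixed L2 larvae, and the larval reference (5 arrays) was RNA bound nonspecifically in mock pull-downs from N2 wild-type L2 larvae. The paper states that RNA bound nonspecifically to the beads is likely to be present in the tagged samples too. Each transgenic sample came from 1 line, the unc-4 promoter is also active in a few neurons outside the A class, such as I5, and the tagged protein was sometimes seen outside the intended cells. The 5 larval reference hybridizations serve both larval comparisons, in which they were normalized separately, so that the 2 comparisons are not independent.

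Squared correlations between replicate arrays ranged from 0.92 to 0.99. Of 26 probe sets for neuronal markers, 4 were called higher in embryonic neurons, 20 with the larval pan-neural tag and 4 with the A-class tag, with median log2 changes of 0.84, 1.37 and 0.53. Markers of body wall muscle had median changes of -1.23, -0.64 and -0.07 in the same order, and those of epidermis -1.16, -0.96 and 0.12. The 3 prime minus 5 prime difference of Gapdh control probes, a sign of RNA quality, averaged 0.78 ± 0.14 in embryonic neurons against 1.16 ± 0.12 in the embryonic reference (log2, SD, n = 3 and 4). It was 2.74 ± 0.14 for larval pan-neural arrays against 2.2 ± 0.56 for reference arrays (n = 3 and 5), and 2.49 ± 0.26 for A-class arrays against 2.41 ± 0.59 for reference arrays (n = 4 and 5). Embryonic neuron and reference arrays shared neither a hybridization day nor a chip lot, so that batch and group cannot be told apart. Of the larval pan-neural arrays, 2 shared a hybridization day with 2 reference arrays, and no A-class array shared a day with its reference.

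The members as a whole were near the reference in all 3 neuronal samples. Called probe sets were those with an adjusted p under 0.01 in limma, the moderated linear model for arrays, and at least a 1.5-fold change. In embryonic neurons 0 of 45 members were called higher and 0 lower, against 1.96% and 2.78% of all probe sets. For larval pan-neural arrays the counts were again 0 and 0, against 6.08% and 3.34% of all probe sets, and for A-class arrays 0 and 0, against 0.776% and 0.115%. The median log2 change of the members was 0.08 in embryonic neurons, -0.18 for larval pan-neural and -0.07 for A-class arrays, beside 0.04, 0.00 and -0.01 over all probe sets.

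**Figure D1:**
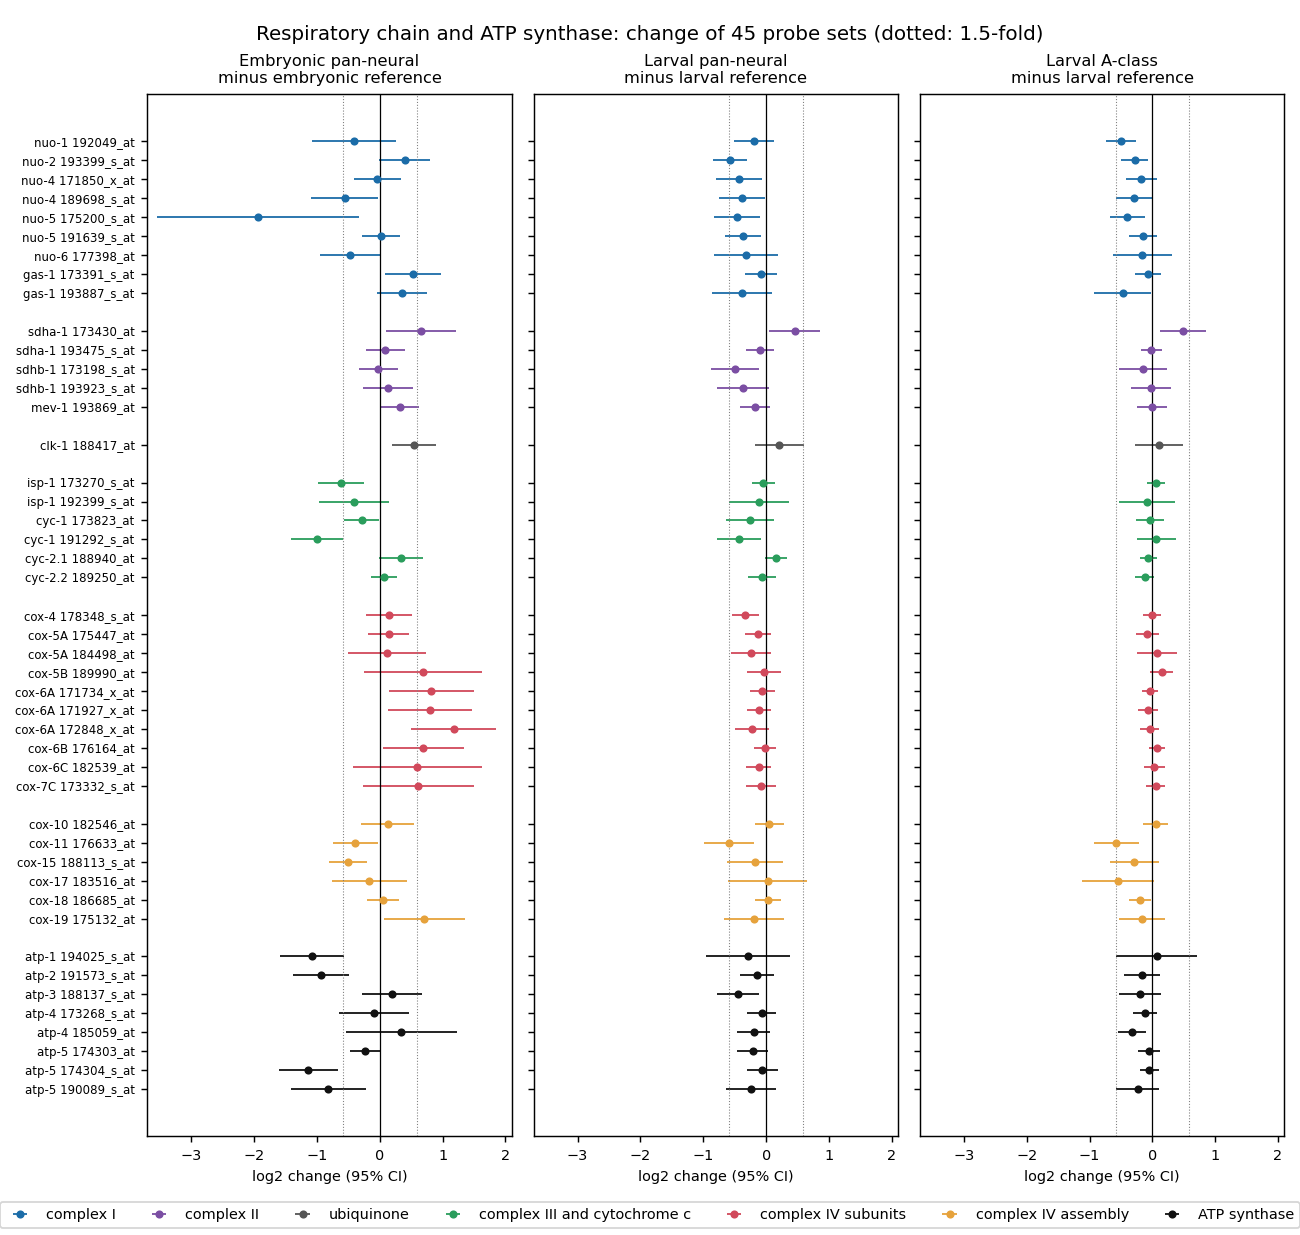
Log2 change of the 45 member probe sets (neuronal sample minus reference; horizontal axis, with 95% confidence interval) in the 3 neuronal samples, ordered and coloured by complex; dotted lines mark 1.5-fold. In embryonic neurons all 10 complex IV subunit probe sets lie above 0 and 6 of 8 ATP synthase probe sets below it, whereas in the larval pan-neural sample 39 of 45 members lie below 0, within 0.59 of it.

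How far the members could have moved unseen differed between the samples. The 95% interval lay wholly within 1.5-fold of the reference for 12 of 45 members in embryonic neurons, 24 in larval pan-neural and 36 in A-class neurons. Within 2-fold lay 27, 45 and 44 of them. A change of 2-fold was therefore outside the interval of every member in the larval pan-neural comparison, but inside that of 18 members in embryonic neurons. The larval intervals concern the RNA pulled down, which may hold RNA bound nonspecifically to the beads, and not the neurons alone. How far such RNA reduced the larval changes was not tested. In these bulk samples fewer cells of a type and less RNA per cell cannot be told apart.

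In embryonic neurons the members of the complexes lay on different sides of the reference. At an adjusted p under 0.05, without a minimum fold, 1 member was higher and 6 were lower (2.2% and 13.3%, against 7.15% and 7.69% of all probe sets). Each of these members has an identifier that marks probes shared between transcripts. At an unadjusted p under 0.05 there were 9 higher and 12 lower (20.0% and 26.7%, against 15.5% and 15%), and the arrays of both groups did not overlap for 6 higher and 8 lower members (13.3% and 17.8%, against 15.3% and 13.4%). The shares of lower members thus stood above the background under these 3 rules, and the shares of higher members stood above it only at the unadjusted p.

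Complex IV subunits stood highest. All 10 probe sets, of 7 genes, had a positive change, with a median of 0.65 and a range of 0.11 to 1.18 (log2), where 55.8% of all probe sets were above 0. The size of this shift rested in part on embryonic reference replicate 4, which was hybridized on another day than the other reference arrays and read lowest of the 4 for all 10 probe sets. Without it 9 of 10 remained above 0, cox-5A (184498_at) stood at -0.05, and the median was 0.31. The highest was a probe set of cox-6A (172848_x_at), which encodes a nuclear subunit of cytochrome c oxidase. Its log2 intensities were 10.83, 10.81 and 10.98 in embryonic neurons, against 9.80, 9.63, 10.37 and 8.98 in the embryonic reference. The groups did not overlap, the neuronal arrays lay close together and reference replicate 4 was the lowest array. The difference was 1.18 ± 0.29 (SE), or 2.26-fold, with an adjusted p of 0.033 in limma, which passed 0.05 but not 0.01. The change was between 0.94 and 1.4 without any 1 array, but the adjusted p then reached up to 0.10 and missed 0.05 without any of the 3 neuronal arrays and without reference replicates 1 and 2.

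The other cox-6A probe sets gave 0.82 (171734_x_at, adjusted p = 0.10) and 0.80 (171927_x_at, adjusted p = 0.11), and all 3 have shared probes. The same direction was seen for the subunit genes cox-6B (0.69 ± 0.28, adjusted p = 0.14), cox-5B (0.69 ± 0.40, adjusted p = 0.29), cox-7C (0.61 ± 0.38, adjusted p = 0.31) and cox-6C (0.60 ± 0.44, adjusted p = 0.39). These 4 missed the threshold in limma, with a spread in the reference of 0.54 to 0.82 (SD, n = 4), against 0.07 to 0.48 in neurons (SD, n = 3). For cox-6C, for example, the neuronal arrays read 9.80, 9.77 and 10.62 and the reference arrays 10.02, 9.36, 10.13 and 8.35, which overlap. The cox-6B arrays did not overlap, with all 3 neuronal arrays above the reference. The subunit genes cox-4 and cox-5A were nearer to the reference, with 0.15 (95% interval -0.22 to 0.52) for cox-4 and 0.14 (-0.19 to 0.46) and 0.11 (-0.51 to 0.73) for the 2 cox-5A probe sets.

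Of the 8 ATP synthase probe sets 3 were lower and 0 higher at an adjusted p under 0.05, against 7.69% and 7.15% of all probe sets. In the catalytic head, where ATP is made, atp-1 encodes the alpha subunit and atp-2 the beta subunit. The atp-1 probe set read 8.71, 8.74 and 7.86 in embryonic neurons, against 9.64, 9.34, 9.51 and 9.59 in the reference. For atp-2 the values were 10.21, 10.56 and 9.76 in embryonic neurons, against 11.21, 10.89, 11.17 and 11.19 in the reference. In both genes all neuronal arrays lay below all reference arrays, and neuronal replicate 3 was the lowest. Both probe sets have identifiers of shared probes. The differences were -1.08 ± 0.22 for atp-1 and -0.94 ± 0.19 for atp-2 (log2, SE; 2.12-fold and 1.91-fold lower), each with an adjusted p of 0.018 in limma. Without neuronal replicate 1 the adjusted p of atp-2 was 0.061.

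In the stalk, atp-5 encodes subunit d, and its 3 probe sets gave unequal changes. One (174304_s_at) read 9.54, 9.47 and 9.0 in embryonic neurons, against 10.77, 10.31, 10.68 and 10.13 in the reference, a difference of -1.14 ± 0.20 (2.2-fold lower, adjusted p = 0.011). Its groups did not overlap. The other probe sets of atp-5 gave -0.82 ± 0.26 (190089_s_at, adjusted p = 0.075) and -0.23 ± 0.11 (174303_at, adjusted p = 0.19), so that only 1 of the 3 passed 0.05. The smallest of the 3 changes was at the probe set whose identifier marks no shared probes (174303_at). For atp-3, the stalk subunit OSCP, the change was 0.19 ± 0.20, and for atp-4, the coupling factor, -0.10 ± 0.24 and 0.35 ± 0.38. Over the 8 probe sets 6 were below 0, with a median of -0.53, and the median stayed between -0.61 and -0.42 without any 1 array.

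**Figure D2:**
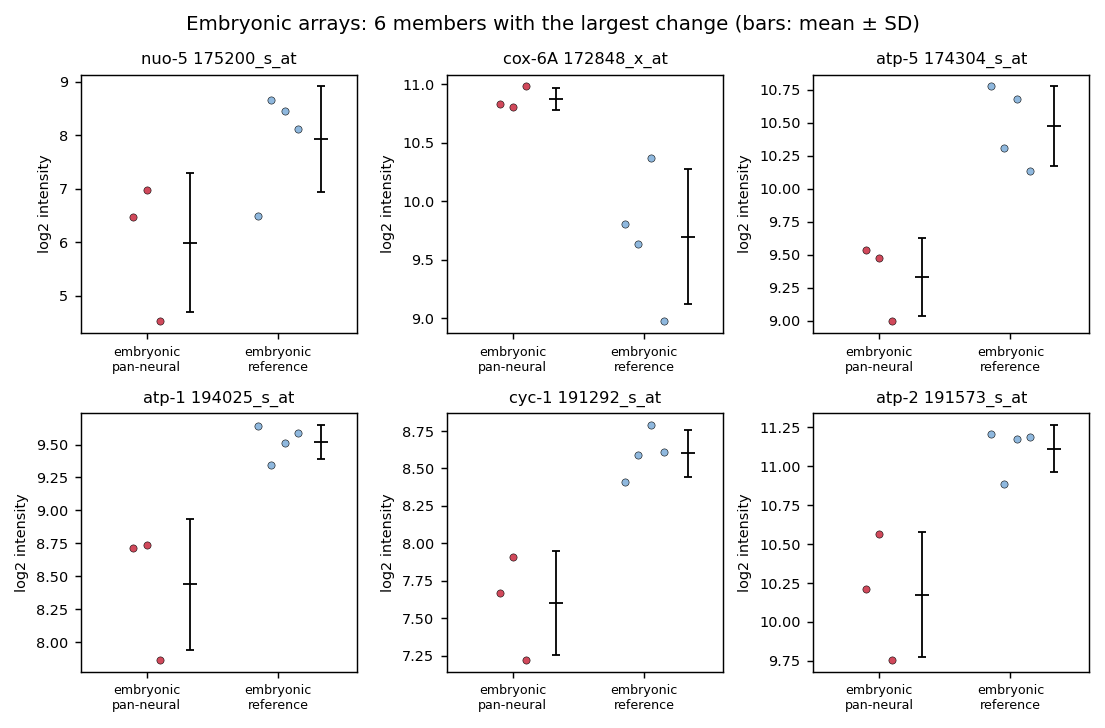
Log2 intensity of the 6 members with the largest change in embryonic neurons, in each embryonic pan-neural array (red, left, 3 arrays) and each embryonic reference array (blue, right, 4 arrays), with mean and SD beside the points; each panel has its own vertical axis, which does not start at 0. The groups do not overlap for cox-6A, atp-1, atp-2, atp-5 and cyc-1, whereas for nuo-5 the reference array at 6.49 lies among the neuronal arrays.

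Complex IV subunits and ATP synthase were also compared within single arrays. The probe sets of each gene were averaged first, and the mean of the 5 ATP synthase genes was subtracted from that of the 7 complex IV subunit genes. The complex IV mean overlapped between the groups, with 10.21 to 10.59 in embryonic neurons and 9.09 to 10.39 in the embryonic reference. The ATP synthase mean did not, with 9.15 to 9.53 in embryonic neurons and 9.55 to 10.09 in the embryonic reference. The difference of the 2 means in log2 intensity was 0.90, 0.68 and 1.43 in embryonic neurons, against 0.06, 0.01, 0.30 and -0.46 in the embryonic reference. The means were 1.01 ± 0.39 in neurons and -0.02 ± 0.32 in the reference (SD, n = 3 and 4), and no neuronal array fell as low as any reference array. The same quantity was 0.61 ± 0.16 for larval pan-neural arrays against 0.50 ± 0.16 for reference arrays (SD, n = 3 and 5), and 0.68 ± 0.19 for A-class arrays against 0.52 ± 0.14 for reference arrays (SD, n = 4 and 5), with overlapping arrays in both larval comparisons. This quantity was formed after the values had been seen and has no test. Its level depends on the probe sets, and only its difference between groups of 1 set can be read. It covers the member genes only. Of 10 probe sets of other genes for the synthase and its inhibitor, 8 were above 0 in embryonic neurons, with a median of 0.81.

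**Figure D3:**
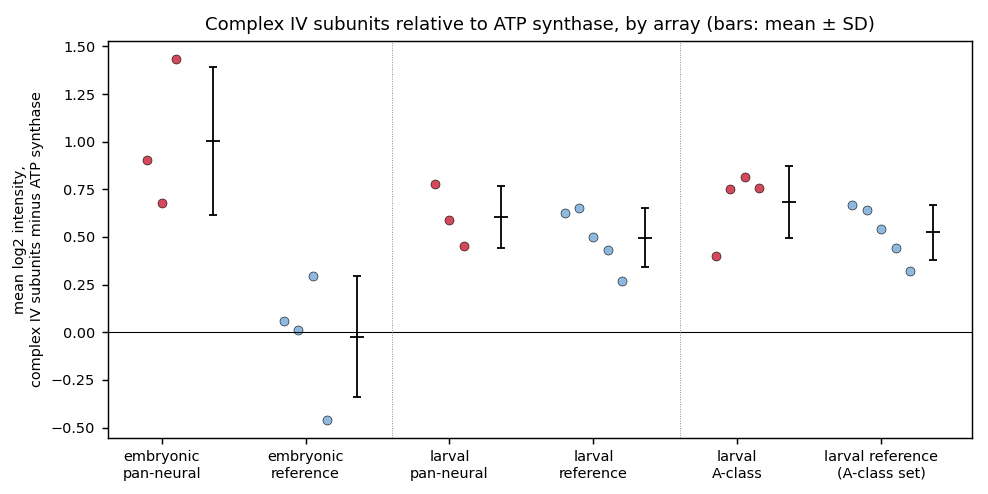
Mean log2 intensity of the 7 complex IV subunit genes minus that of the 5 ATP synthase genes among the members, in each array (points). The probe sets of each gene were averaged first. The mean and SD of each group stand beside the points. Neuronal samples are red and stand left of their reference in blue. The embryonic neuronal arrays range from 0.68 to 1.43 and the embryonic reference arrays from -0.46 to 0.30, while larval neuronal and reference arrays overlap.

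Of complex III, both member genes had probe sets that were lower. The gene isp-1 encodes the Rieske iron-sulphur protein and cyc-1 encodes cytochrome c1. A probe set of cyc-1 (191292_s_at) read 7.67, 7.91 and 7.22 in embryonic neurons, against 8.41, 8.59, 8.79 and 8.61 in the reference. The difference was -1.0 ± 0.18 (2.0-fold lower, adjusted p = 0.011), without overlap. The other cyc-1 probe set, whose identifier marks no shared probes, gave -0.29 ± 0.12 (173823_at, adjusted p = 0.16), also without overlap. One isp-1 probe set (173270_s_at) read 10.92, 10.70 and 10.30 in embryonic neurons, against 11.38, 11.26, 11.27 and 11.13 in the reference. All neuronal arrays were below all reference arrays, and the difference was -0.62 ± 0.16 (adjusted p = 0.037). It missed 0.05 without neuronal replicate 2 or 3 and without any 1 of the reference arrays, with an adjusted p of up to 0.096. The other isp-1 probe set gave -0.41 ± 0.24 (192399_s_at, adjusted p = 0.29).

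The electron carrier cytochrome c is encoded by the paralogs cyc-2.1 and cyc-2.2. In embryonic neurons cyc-2.1 changed by 0.34 ± 0.15 (adjusted p = 0.18). The cyc-2.2 probe set lay between 3.6 and 4.09 in all groups. This is near the level under which 10% of all probe sets lay in each group (3.79 to 4.06), so that a fall could not be seen.

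In complexes I and II and ubiquinone synthesis no member passed an adjusted p of 0.05 in embryonic neurons. The largest change of any member was that of a nuo-5 probe set (175200_s_at), for the large iron-sulphur subunit of complex I. It read 6.47, 6.99 and 4.53 in embryonic neurons, against 6.49, 8.66, 8.45 and 8.12 in the reference. Reference replicate 1 lay among the neuronal arrays, and the difference of -1.94 ± 0.69 did not pass (adjusted p = 0.11). It was -1.2 without neuronal replicate 3. The other nuo-5 probe set (191639_s_at) gave 0.02 ± 0.13, so that the probe sets of this gene do not read alike.

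The remaining complex I members in embryonic neurons ranged from -0.56 for a probe set of nuo-4, an accessory subunit, to 0.53 for a probe set of gas-1, a core subunit close to the ubiquinone site, and 6 of the 9 complex I intervals lay within 2-fold. In complex II, sdha-1, the flavoprotein of succinate dehydrogenase, changed by 0.65 ± 0.24 (173430_at, adjusted p = 0.11), mev-1, its cytochrome b subunit, by 0.32 ± 0.13 (adjusted p = 0.15), and the 2 probe sets of sdhb-1, its iron-sulphur subunit, by -0.02 and 0.13. The ubiquinone hydroxylase clk-1 read 8.19, 8.22 and 8.21 in embryonic neurons, against 7.88, 7.5, 7.89 and 7.38 in the reference. All neuronal arrays were above the reference arrays, and the difference of 0.54 ± 0.15 had an adjusted p of 0.052.

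Assembly factors of complex IV did not follow its subunits. In embryonic neurons cox-15, which acts in haem synthesis for the oxidase, read 7.27, 7.12 and 7.10, against 7.49, 7.75, 7.52 and 7.90 in the reference, a change of -0.50 ± 0.13 (adjusted p = 0.040) without overlap. It missed 0.05 without any 1 of the neuronal arrays and without reference replicate 2, 3 or 4, with an adjusted p of up to 0.113. The copper factor cox-11 changed by -0.39 ± 0.15 (adjusted p = 0.14), while cox-10, cox-17 and cox-18 lay between -0.17 and 0.13. For cox-19 the reference stood at 3.73 ± 0.12 (SD, n = 4), close to the floor of the array, and its change of 0.70 ± 0.28 (adjusted p = 0.13) is rough.

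The count of embryonic calls depended on how it was computed. With probe sets under a mean log2 intensity of 6 removed, 3 members were called lower (cyc-1 191292_s_at, atp-1 and atp-5 174304_s_at). Of all probe sets kept, 763 were then called lower, beside 627 of all probe sets in the main fit. With a further quantile normalization, 3 members were called lower (atp-1, atp-2 and atp-5 174304_s_at), and 598 of all probe sets. The neuronal arrays also had less body wall muscle signal, with 15 of 25 marker probe sets lower at an adjusted p under 0.05, none higher, and a summed intensity of 6594 to 7073 in neurons and 9479 to 13986 in the reference. Of the epidermal markers 8 of 15 were lower and none higher, with sums of 1173 to 2702 in neurons and 5539 to 12406 in the reference. The part of these cells in the changes of the members was not tested.

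In the larval pan-neural sample nearly all members were slightly below the reference. Of 45 members 39 had a negative change, where 49.7% of all probe sets did, with a range of -0.59 to 0.45. At an adjusted p under 0.05 there were 0 higher and 3 lower members (0.0% and 6.7%, against 9.89% and 9% of all probe sets). At an unadjusted p under 0.05 there were 1 higher and 10 lower (2.2% and 22.2%, against 14.2% and 15.3%). The groups did not overlap for 1 higher and 7 lower members (2.2% and 15.6%, against 12.5% and 11.5%). The share of higher members was below the background under each of these rules, and that of lower members lay above it at the unadjusted p and without overlap.

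Complex I was lowest. All 9 of its probe sets, of 6 genes, were below 0 in the larval pan-neural sample, with a median of -0.38, and remained so without any 1 array. The core subunit nuo-2 read 9.60, 9.97 and 9.86 in larval neurons, against 10.45, 10.44, 10.42, 10.48 and 10.13 in the larval reference. No neuronal array reached the lowest reference array, replicate 5. The difference was -0.58 ± 0.12, or 1.49-fold, with an adjusted p of 0.0092 in limma, which passed 0.01 while the change fell just short of 1.5-fold. With the hybridization day as a fixed term the adjusted p was 0.14. Without larval reference replicate 5, and with arrays centred on their median, nuo-2 was called lower (-0.59 when centred).

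The other complex I members of the larval pan-neural sample ranged from -0.46 for nuo-5 (175200_s_at) to -0.09 for gas-1 (173391_s_at), and none passed an adjusted p of 0.05. The nuo-5 probe set 175200_s_at read 6.44, 5.88 and 5.8 in larval neurons, against 6.28, 6.61, 6.58, 6.68 and 6.36 in the reference, with overlap at neuronal replicate 1. Here the nuo-5 probe sets changed alike, at -0.46 ± 0.16 and -0.37 ± 0.13, as did those of nuo-4, at -0.43 ± 0.16 and -0.39 ± 0.16.

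In complex II the 173198_s_at probe set of sdhb-1, the iron-sulphur subunit, read 9.998, 10.01 and 10.25 in larval neurons, against 10.12, 10.59, 10.53, 10.93 and 10.70 in the reference. The groups overlapped through reference replicate 1, and the difference was -0.49 ± 0.17 (adjusted p = 0.076), with -0.37 ± 0.19 at the other sdhb-1 probe set. The flavoprotein gene sdha-1 went the other way. It read 10.90, 10.32 and 10.66 in larval neurons, against 10.05, 9.79, 10.20, 10.34 and 10.48 in the reference, with overlap and a difference of 0.45 ± 0.18 (adjusted p = 0.12). This was the highest change of any member in the larval pan-neural sample.

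Of complex IV and its assembly factors, cox-11 and cox-4 passed an adjusted p of 0.05. The copper factor cox-11 had the largest change of any member in the larval pan-neural sample. It read 5.84, 6.40 and 6.34 in larval neurons, against 7.03, 6.46, 6.56, 6.99 and 6.85 in the reference. All neuronal arrays were below the reference arrays by a narrow margin, with a difference of -0.59 ± 0.18 (1.5-fold, adjusted p = 0.047). It missed 0.05 without larval pan-neural replicate 1 or 3 and without larval reference replicate 1, 4 or 5, with an adjusted p of up to 0.175. The oxidase subunit cox-4 read 11.48, 11.65 and 11.42 in larval neurons, against 11.77, 11.85, 11.75, 11.99 and 11.87 in the reference, a difference of -0.33 ± 0.10 (adjusted p = 0.041) without overlap. It missed 0.05 without larval pan-neural replicate 1 or 3 and without larval reference replicates 2 to 5 taken singly, with an adjusted p of up to 0.165. The 10 complex IV subunit probe sets had a median of -0.12 and all of their intervals lay within 1.5-fold of the reference.

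In ATP synthase all 8 probe sets were below 0 in the larval pan-neural sample, with a median of -0.21. The lowest was atp-3, the OSCP subunit, which read 10.32, 10.70 and 10.67 in larval neurons, against 10.74, 11.20, 10.83, 11.25 and 11.04 in the reference, a difference of -0.45 ± 0.15 (adjusted p = 0.067) without overlap. The probe sets with the largest embryonic changes were near the reference here, with -0.29 ± 0.29 for atp-1, -0.15 ± 0.12 for atp-2 and -0.06 ± 0.11 for atp-5 (174304_s_at). For cyc-2.1 the larval neuronal arrays read 13.20, 13.20 and 13.23, and the reference arrays 13.05, 13.13, 12.99, 13.08 and 13.01, the only non-overlap upwards (0.16 ± 0.08, adjusted p = 0.23).

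The downward lean was also seen within a hybridization day, among arrays that are part of the comparison above. Between the 2 larval pan-neural and 2 reference arrays of the shared day, 33 of 45 members were below 0, with a median of -0.18. Over all 22548 probe sets 11661 were below 0, with a median of -0.01. The within-day differences were -0.39 for nuo-2, -0.55 for cox-11, -0.40 for cox-4 and 0.08 for sdha-1 (173430_at). With the Gapdh difference as a covariate the median over the members was -0.12, and nuo-2 had an adjusted p of 0.038. Markers of body wall muscle were lower at an adjusted p under 0.05 for 11 of 25 probe sets and higher for 0, with summed intensities of 28293 to 41855 in larval neurons and 46035 to 55556 in the reference. For intestine these were 6 lower and 0 higher of 11, and 9267 to 11144 in larval neurons and 13907 to 20955 in the reference, and for epidermis 11 lower and 0 higher of 15, and 11980 to 17322 in larval neurons and 22665 to 38287 in the reference. The part of these cells in the lower members was not tested.

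**Figure D4:**
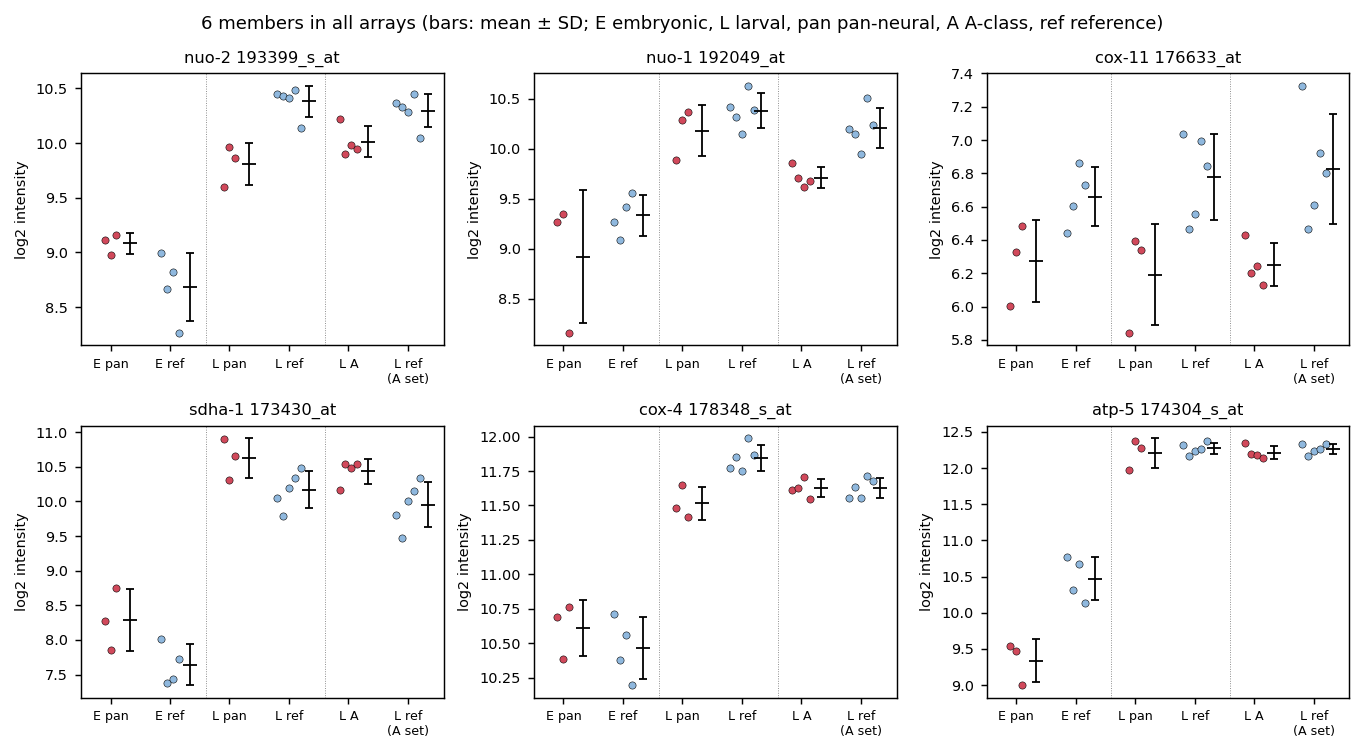
Log2 intensity of nuo-2, nuo-1, cox-11, sdha-1, cox-4 and atp-5 (1 probe set each) in all 6 groups of arrays, with mean and SD beside the points; each neuronal sample (red) stands left of its reference (blue), and dotted lines part the 3 sets, which were normalized separately. Vertical axes differ between panels and do not start at 0. Larval pan-neural arrays of nuo-2 lie below all larval reference arrays, whereas atp-5 is separated only in the embryonic set.

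In the A-class sample the members were closest to the reference. Of 45 members 34 were below 0, where 52.4% of all probe sets were, with a range of -0.57 to 0.48. At an adjusted p under 0.05 there were 0 higher and 1 lower member (0.0% and 2.2%, against 2.2% and 1.14% of all probe sets). At an unadjusted p under 0.05 there were 1 higher and 8 lower (2.2% and 17.8%, against 7.54% and 8.21%). Arrays did not overlap for 0 higher and 3 lower members (0.0% and 6.7%, against 3.92% and 2.81%).

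The member that passed was nuo-1, which encodes the flavin-binding subunit that takes electrons from NADH. It read 9.85, 9.70, 9.61 and 9.67 in A-class neurons, against 10.20, 10.15, 9.94, 10.51 and 10.24 in the larval reference. All A-class arrays were below all reference arrays, with a difference of -0.50 ± 0.11 (1.41-fold, adjusted p = 0.037). The adjusted p reached up to 0.113 without 1 array and missed 0.05 without A-class replicate 2, 3 or 4 and without reference replicate 1, 2 or 5. All 9 complex I probe sets were below 0 in the A-class sample, with a median of -0.28, and remained so without any 1 array.

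Other A-class changes did not pass. The lowest was cox-11, at 6.43, 6.20, 6.24 and 6.13 in A-class neurons, against 7.33, 6.46, 6.61, 6.92 and 6.80 in the reference, without overlap but with an adjusted p of 0.089 (-0.57 ± 0.16). The copper chaperone cox-17 read 7.69, 7.11, 6.95 and 6.81 in A-class neurons, against 8.36, 7.46, 7.52, 7.14 and 7.96 in the reference, with overlap (-0.55 ± 0.25, adjusted p = 0.34). Both are assembly factors that deliver copper to the oxidase.

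In complex I a gas-1 probe set (193887_s_at) read 9.35, 8.88, 8.98 and 9.10 in A-class neurons, against 9.25, 9.59, 9.03, 10.12 and 9.75 in the reference (-0.47 ± 0.20, adjusted p = 0.30). For nuo-5 (175200_s_at) the values were 6.18, 5.99, 5.89 and 5.99 in A-class neurons, against 6.18, 6.61, 6.38, 6.72 and 6.18 in the reference (-0.40 ± 0.13, adjusted p = 0.13). Both overlapped, gas-1 over several arrays and nuo-5 only where A-class replicate 1 met the lowest reference arrays. In ATP synthase atp-4 changed by -0.32 ± 0.10 (185059_at, adjusted p = 0.12). The highest was sdha-1 (173430_at), which read 10.17, 10.54, 10.49 and 10.55 in A-class neurons, where the low replicate 1 had been washed by another protocol than the others, against 9.80, 9.48, 10.01, 10.16 and 10.33 in the reference, with overlap (0.48 ± 0.16, adjusted p = 0.17). The 10 complex IV subunit probe sets had a median of 0.01, 5 were above and 5 below 0, and all intervals lay within 1.5-fold. Body wall muscle markers had sums of 42120 to 46095 in A-class neurons and 42618 to 52775 in the reference, and 1 of 25 was lower and 0 higher at an adjusted p under 0.05. Epidermal markers went the other way, with sums of 35827 to 52377 in A-class neurons and 22664 to 38385 in the reference, and 2 of 15 were higher and 0 lower. Intestinal markers had sums of 15181 to 19988 in A-class neurons and 13425 to 21237 in the reference, with 0 of 11 higher and 0 lower. The part of these cells in the changes of the members was not tested.

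Whether the members were enriched differently in embryonic and larval neurons was tested as the difference of both enrichments in 1 fit. The embryonic samples were sorted cultured cells and the larval samples pull-downs, hybridized on other days. Stage, method and batch therefore cannot be told apart. Of 45 members 1 was called with a higher and 1 with a lower embryonic enrichment (2.2% and 2.2%, against 1.88% and 3.13% of all probe sets). At an adjusted p under 0.05 the counts were 2 and 3 (4.4% and 6.7%, against 5.41% and 6.96%), and at an unadjusted p under 0.05 they were 11 and 4 (24.4% and 8.9%, against 13% and 13.8%). The median difference was 0.20, beside 0.04 over all probe sets.

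The member with a higher embryonic enrichment was nuo-2, with 0.40 ± 0.18 in embryonic neurons and -0.58 ± 0.12 in larval neurons, a difference of 0.97 ± 0.21 (1.96-fold, adjusted p = 0.0090). The embryonic arrays of nuo-2 read 9.11, 8.97 and 9.16 in neurons, against 8.99, 8.67, 8.82 and 8.26 in the reference. The member with a lower embryonic enrichment was atp-5 (174304_s_at), with -1.14 ± 0.20 in embryonic and -0.06 ± 0.11 in larval neurons, a difference of -1.07 ± 0.23 (2.1-fold, adjusted p = 0.0079). The cox-6A probe set 172848_x_at had the largest upward difference, 1.4 ± 0.32 (adjusted p = 0.0103), just outside the threshold. Both calls lay close to the threshold. Leaving out 1 array at a time, the difference stayed between 0.83 and 1.07 for nuo-2 and between -1.19 and -0.90 for atp-5, but the adjusted p reached 0.028 and 0.026. The nuo-2 call was lost without any 1 of the embryonic pan-neural arrays, embryonic reference replicate 2, larval pan-neural replicates 1 and 3 and larval reference replicates 1 to 4, and the atp-5 call without embryonic pan-neural replicate 3, embryonic reference replicates 1 to 3, larval pan-neural replicates 2 and 3 and any larval reference array. Both probe sets have identifiers of shared probes. All 10 complex IV subunit probe sets had a positive difference, with a median of 0.71.

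Between A-class and larval pan-neural enrichment, 0 members were called with a higher and 0 with a lower A-class enrichment (against 1.95% and 3.76% of all probe sets). At an unadjusted p under 0.05 limma gave 7 higher and 3 lower (15.6% and 6.7%, against 13% and 13.2%), and at an adjusted p under 0.05 1 higher and 0 lower (2.2% and 0.0%, against 6.16% and 7.50%). That 1 was a cox-5A probe set (184498_at), with 0.32 ± 0.09 (adjusted p = 0.041). It missed 0.05 without any 1 of the A-class or larval pan-neural arrays and without larval reference replicate 3, with an adjusted p of up to 0.108. The 95% interval lay within 1.5-fold for 39 of 45 members.

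Subunits of the same complexes that carry other gene names were read as a second view. Among 16 complex I and II genes outside the naming rule (19 probe sets), 0 were called higher and 1 lower in embryonic neurons, against 1.96% and 2.78% of all probe sets. In the larval pan-neural sample there were 0 and 1, against 6.08% and 3.34%. The probe set called was that of sdha-2 both times. This paralog of sdha-1 fell by 2.25 ± 0.32 on the log2 scale in embryonic neurons (means of 6.72 in neurons and 8.97 in the reference, adjusted p = 0.0050) and by 0.79 ± 0.14 in larval neurons (6.23 and 7.02, adjusted p = 0.0042). The list's median was -0.09 in embryonic neurons and -0.26 in both larval samples.

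Other genes of ATP synthase lay on the other side of the reference from atp-1, atp-2 and atp-5 in embryonic neurons. The list of 7 further genes for the synthase and its inhibitor (asb-1, asb-2, asg-1, asg-2, hpo-18, mai-1 and mai-2, 10 probe sets) had 8 probe sets above 0 in embryonic neurons, with a median of 0.81. At an adjusted p under 0.05, 1 was higher and 0 lower, against 7.15% and 7.69% of all probe sets. In the larval pan-neural sample 8 of the 10 were below 0, with a median of -0.37. The 4 further complex III genes were ucr-1, ucr-2.1, ucr-2.2 and ucr-2.3 (5 probe sets). In embryonic neurons 1 probe set was higher and 1 lower at an adjusted p under 0.05, against the same shares of all probe sets. All 5 were below 0 in the larval pan-neural sample, with a median of -0.42. None of the 15 probe sets of both groups was called in any neuron against reference comparison, while ucr-2.2 (173239_s_at) had a higher embryonic than larval enrichment (0.97 ± 0.21, adjusted p = 0.0068).

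Pathways that feed the chain were called about as often as all probe sets or less. Of 29 probe sets of the TCA cycle and pyruvate dehydrogenase, which feed NADH and succinate to the chain, 0 were called higher and 0 lower in embryonic neurons, against 1.96% and 2.78% of all probe sets, with a median of -0.04. In the larval pan-neural sample 0 were called higher and 1 lower, against 6.08% and 3.34%, with a median of -0.33. The member called was sucl-2, a subunit of succinyl-CoA synthetase, with -1.15 ± 0.19 (means of 8.82 in larval neurons and 9.98 in the reference, adjusted p = 0.0029). Of 7 probe sets of ubiquinone synthesis outside clk-1, 0 were called in embryonic neurons, 3 were higher and 0 lower at an adjusted p under 0.05, against 7.15% and 7.69% of all probe sets, and the median was 0.15. The 5 probe sets of ADP/ATP carriers and the uncoupling protein ucp-4 were not called in these 3 comparisons, with medians of -0.38 in embryonic neurons, -0.03 for larval pan-neural and -0.04 for A-class arrays.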

How the data were processed

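RNA of 3 neuronal samples and their references was hybridized to the Affymetrix C. elegans GeneChip. The deposited values are linear intensity per probe set, which the authors computed with RMA (background correction, quantile normalization and probe summary) in 3 separate sets. No source used here names the RMA version. The larval reference hybridizations labelled with the first set follow the quantiles of the larval pan-neural arrays (largest gap 0.13 log2, against 0.57 to the embryonic arrays) and were analysed with them. Control probe sets (77) were left out, and gene names come from the platform annotation, which names 1 gene for 20766 probe sets, several for 887 and none for 895. Tests used log2 intensity with lmFit and eBayes of limma 3.58.1 in R 4.3.3, with Benjamini-Hochberg adjustment over 22548 probe sets, a change called at an adjusted p under 0.01 and 1.5-fold. ± is the SE of limma unless SD is given. Differences between enrichments were contrasts in 1 fit, for the A-class after each array had its set's reference mean subtracted. The code was tested on simulated data. The members and lists were chosen with earlier results of these data known. Values in every array are given for the 6 members with the largest change in each comparison of neurons with a reference, for members that passed an adjusted p of 0.05 there and for those a comparison turned on, the last chosen after their values were seen; from each related list at most the 2 largest called rises and falls are named. Alternatives were an offset of 16, a mean log2 minimum of 6, quantile normalization, median centring, an intensity trend, a looser call, removal of probe sets of shared probes, replicate and day blocks, a Gapdh covariate and leaving out each array. Arrays give no read depth, and their number limits the precision. Nothing in the labels beyond the term biological replicate says how replicates were grown, so that p-values measure the spread between these arrays. Levels were not compared between sets or between probe sets.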

Additional observations from a re-analysis of the deposited data

Results flagged for a closer look

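Among the 14 members with the largest changes, 4 of 56 groups of 4 or 5 arrays held an array far from the others, where chance gives about 1 in 20. For gas-1 (193887_s_at) embryonic reference replicate 1 read 8.81, above 8.17 to 8.25 in the others. For atp-2 embryonic reference replicate 2 read 10.89, below 11.17 to 11.21. For sdha-1 (173430_at) A-class replicate 1 read 10.17, below 10.49 to 10.55, and this array had another wash protocol. For nuo-2 larval reference replicate 5 read 10.13, below 10.42 to 10.48. Over all members 13 of 180 such groups held one. Of the tested differences between embryonic and larval pan-neural enrichment, those of nuo-2 (0.97, adjusted p = 0.0090 in limma) and atp-5 (174304_s_at, -1.07, adjusted p = 0.0079) passed.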

How the results depend on the processing

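The median over all members, and the changes of the members that were among the 6 largest or passed an adjusted p of 0.05 in a comparison, kept their direction under every alternative that held them. Members with identifiers of shared probes were absent from the run without such probe sets, which therefore did not test them. Of the complex IV subunits, which were also recomputed without single arrays, cox-5A (184498_at, 0.11 in embryonic neurons) was at -0.05 without embryonic reference replicate 4. In embryonic neurons the members called lower numbered 3 with the intensity minimum and 3 with quantile normalization, where 763 and 598 of all probe sets were called lower. At an adjusted p under 0.05 there were 1 higher and 6 lower members, against 7.15% and 7.69% of all probe sets. The embryonic median ranged from 0.030 to 0.13 without 1 array and was lowest without embryonic reference replicate 4. In the larval pan-neural sample 1 member was called lower with centred arrays, 3 at an adjusted p under 0.05, and 0 to 1 without 1 array (nuo-2, without larval reference replicate 5). In the A-class sample 1 was lower at an adjusted p under 0.05, and 1 had a higher A-class than larval pan-neural enrichment. For embryonic against larval enrichment, higher and lower calls numbered 2 and 1 with the intensity minimum, 0 and 3 with quantile normalization, 2 and 0 with centred arrays, 2 and 3 at an adjusted p under 0.05, 0 and 0 without shared-probe sets, 0 and 0 with the day as a random block, and 0 to 2 in each direction without 1 array, with a median of 0.17 to 0.32 (highest without embryonic pan-neural replicate 2). The run without shared-probe sets held neither nuo-2 nor atp-5 (174304_s_at), so its counts do not bear on these 2. The causes were not tested.

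Deviations of same-numbered arrays from their group means had r of 0.05 to 0.33 in the embryonic set. In the larval pan-neural comparison r was -0.23 to 0.15, and in the A-class comparison -0.42 to -0.08. These correlations cannot decide whether the numbers pair the samples, and the main fits were unpaired. With a replicate block the embryonic median was 0.030, the embryonic against larval calls were 0 and 0, and calls over all probe sets were 168 higher and 271 lower in embryonic neurons (442 and 627 without), 731 and 252 for larval pan-neural arrays (1372 and 754) and 12 and 0 for A-class arrays (175 and 26). With the day as a fixed term, possible only for the larval pan-neural sample, they were 376 and 49, and with the Gapdh covariate 1165 and 296. With the day as a random block they were 121 and 220 in embryonic neurons and 107 and 9 for A-class arrays, and with an offset of 16 they were 278 and 397 in embryonic neurons. Probe sets near the array's floor, such as cyc-2.2 and cox-19, limit what could be seen.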

Other observations

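Glycolysis, the other main source of ATP, was the related list with the most calls in embryonic neurons. Of 21 probe sets of 16 genes 4 were called higher and 0 lower, against 1.96% and 2.78% of all probe sets. At an adjusted p under 0.05, 9 were higher and 0 lower, against 7.15% and 7.69% of all probe sets. The largest were an aldolase probe set (aldo-1, 192888_s_at), with means of 11.99 in embryonic neurons and 10.56 in the reference (1.43 ± 0.18, adjusted p = 0.0032), and lactate dehydrogenase (ldh-1), with 11.45 and 10.15 (1.3 ± 0.15, adjusted p = 0.0029). The median was 0.66 in embryonic neurons, 0.07 for larval pan-neural and -0.05 for A-class arrays, and no glycolytic probe set was called in either larval sample. The part of the lower muscle and epidermal signal in the same arrays was not tested.

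The 11 probe sets of oxidant defence had a median of 0.33 in embryonic neurons and -0.45 in larval pan-neural neurons. In embryonic neurons 1 was called higher and 0 lower, against 1.96% and 2.78% of all probe sets. In the larval pan-neural sample 0 were called higher and 1 lower, against 6.08% and 3.34%. The Cu/Zn superoxide dismutase sod-1 rose by 0.64 ± 0.11 in embryonic neurons (means of 9.77 in neurons and 9.13 in the reference, adjusted p = 0.0095), and the peroxiredoxin prdx-2 fell by 0.71 ± 0.10 in larval neurons (11.55 in neurons and 12.26 in the reference, adjusted p = 0.0013). The difference of embryonic and larval enrichment was called higher for 3 of 11 probe sets and lower for 0, against 1.88% and 3.13% of all probe sets. Among them were prdx-2 (1.3 ± 0.23, adjusted p = 0.0021) and sod-1 (1.07 ± 0.16, adjusted p = 0.00074). Of 65 mitochondrial ribosome probe sets 2 were called higher and 0 lower in the larval pan-neural sample, where the list's median was -0.28. The shares over all probe sets were 6.08% and 3.34%. The 2 called were mrps-2 (0.91 ± 0.16, adjusted p = 0.0038) and mrps-11 (0.69 ± 0.13, adjusted p = 0.0061). In embryonic neurons 0 of them were called higher and 1 lower, against 1.96% and 2.78% of all probe sets. That 1 was a probe set of mrpl-44 (187436_s_at), which fell by 0.95 ± 0.16 (adjusted p = 0.0086). At an adjusted p under 0.05 the list had 1 higher and 11 lower there, against 7.15% and 7.69% of all probe sets. Lists of protein import (24 probe sets) and of mitochondrial fission, fusion and transport (12) had no call in the 3 neuronal samples. Over all probe sets 1.96% were called higher and 2.78% lower in embryonic neurons. For larval pan-neural arrays these shares were 6.08% and 3.34%, and for A-class arrays 0.776% and 0.115%. The medians of the 2 lists were -0.05 and -0.12 in embryonic neurons, -0.24 and 0.03 for larval pan-neural and -0.37 and -0.11 for A-class arrays.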
